A study of Mus musculus with 12 samples.

Results

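The genes described here are 10 transcription factors: the AP-1 subunits Fos, Fosb, Fosl1, Fosl2, Jun, Junb and Jund, the BATF proteins Batf and Batf3, and their partner Irf4. They were taken by gene symbol from the array's annotation. Each of the 10 had a single row on the array, among 19938 genes with 1 row each. RNA came from mouse CD8+CD28low T cells of the C57Bl/6 strain, a regulatory subset of CD8 T cells, and was hybridised to 12 Affymetrix whole-transcript arrays, 3 in each of 4 groups. Activated KO and activated WT cells had been cultured for 96 h together with allogenic antigen-presenting cells and an antibody to CD3. Native KO and native WT cells were taken fresh. KO cells have the genotype AIRE ko, and WT cells are wild type at this gene. The labels give neither the number of mice behind an array nor the way in which the cells were isolated, and do not say whether T cells were purified again after the culture. Because native cells were measured without culture, the stimulus and the time in culture cannot be told apart.

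AP-1 is a dimer that Fos proteins form with Jun proteins through a leucine zipper, a paired helix that sets the adjacent basic region onto DNA. In T cells the antigen receptor and costimulation raise AP-1 through MAP kinases, and AP-1 then binds many cytokine gene promoters together with NFAT. Batf and Batf3 have the zipper but lack a transactivation domain. They pair with Jun proteins and bind composite DNA elements with Irf4, a factor that is induced by antigen receptor signals. The AP-1 genes Fos, Fosb, Jun and Junb belong to the immediate early genes, which are transcribed within minutes of a stimulus and whose transcripts are short-lived.

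All levels below are deposited log2 values, so that a difference of 1 is a factor of 2 in signal, and levels of different genes are not compared. The background level of an array is the 95th percentile of 1015 olfactory receptor genes on it, genes of the nose that mark the lower end of the scale. It lay between 6.13 and 6.73 on 11 arrays and at 7.31 on activated KO array 3. That array stood apart: its interquartile range was 2.19, against 2.45 to 2.89 on the others, and the median of its olfactory receptor genes was 6.35, against 5.50 to 5.95. Some results of the members are also given without it, and those of other genes only with it. The means of 3 CD8 T cell markers lay between 10.66 and 12.002 on the 12 arrays, and Cd4 was at background in every group. Of these and 6 T cell markers, Cd8a (-1.12 ± 0.27, limma adjusted p = 0.0111), Cd247 (-1.04 ± 0.26) and Cd5 (-0.98 ± 0.20) fell in activated against native KO cells, and none passed in WT cells. Array 3 was the lowest activated KO array for each of these 3 genes, and 11.4% of all genes fell in KO cells. Zbtb7b, a factor of the CD4 lineage that formed the CD4 list with Cd4, averaged 7.35 in activated KO and 7.67 in activated WT cells and was at background in native cells. It rose after activation, by at least 1.41 in WT cells (limma adjusted p = 0.000644). In KO cells (limma adjusted p = 0.00475) the activated mean lay 1.06 above the background level of the native arrays. That excess is no lower limit, because activated KO array 3, at 6.65, lay under its own background level. The part of these markers in the members' differences was not tested. Cd28 lay between 9.98 and 11.97, well above background, although the cells are labelled CD28low. The arrays measure RNA and hold no cells with high CD28 for comparison, so they cannot test this label. Aire, the gene that is absent from the KO mice and is best known from thymic epithelium, lay between 5.55 and 5.92, at background in all 4 groups, and gave no check of the genotype labels.

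Promoter windows of 9 of the 10 members were found in the RefSeq table (GRCm38.p6), from 250 bases before to 50 bases after the annotated start. Those of Fos, Fosb, Jun and Junb, the AP-1 genes that were lower in activated cells, and of Irf4, the member that was higher, are shown 5′ to 3′ on the strand of the gene. Capitals mark TGACG, the core of the element bound by CREB and ATF proteins, and GGAAA, the core bound by NFAT, on either strand. A GGAAA on the opposite strand reads TTTCC.
Fos, chr12:85473640-85473939, plus strand: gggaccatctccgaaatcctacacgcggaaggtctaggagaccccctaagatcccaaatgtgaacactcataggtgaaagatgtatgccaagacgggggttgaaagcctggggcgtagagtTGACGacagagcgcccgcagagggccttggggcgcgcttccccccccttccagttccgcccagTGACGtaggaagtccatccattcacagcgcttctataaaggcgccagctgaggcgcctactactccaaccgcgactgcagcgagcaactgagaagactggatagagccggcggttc
Fosb, chr7:19309996-19310295, minus strand: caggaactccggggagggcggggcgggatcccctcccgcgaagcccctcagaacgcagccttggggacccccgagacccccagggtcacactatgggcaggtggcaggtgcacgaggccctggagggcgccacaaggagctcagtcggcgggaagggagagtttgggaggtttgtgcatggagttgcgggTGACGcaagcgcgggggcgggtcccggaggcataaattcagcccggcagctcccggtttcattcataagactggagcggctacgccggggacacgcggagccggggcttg
Jun, chr4:95052173-95052472, minus strand: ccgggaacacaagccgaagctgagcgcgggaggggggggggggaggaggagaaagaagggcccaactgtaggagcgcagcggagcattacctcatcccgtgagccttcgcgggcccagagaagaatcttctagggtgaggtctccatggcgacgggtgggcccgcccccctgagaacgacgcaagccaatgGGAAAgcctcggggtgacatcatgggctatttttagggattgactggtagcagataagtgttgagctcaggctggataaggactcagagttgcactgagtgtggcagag
Junb, chr8:84978699-84978998, minus strand: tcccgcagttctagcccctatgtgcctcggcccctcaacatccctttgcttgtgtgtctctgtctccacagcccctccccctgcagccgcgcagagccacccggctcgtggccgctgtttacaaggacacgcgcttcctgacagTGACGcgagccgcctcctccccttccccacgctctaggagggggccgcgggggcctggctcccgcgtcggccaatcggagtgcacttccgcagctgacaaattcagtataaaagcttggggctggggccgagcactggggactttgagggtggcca
Irf4, chr13:30748983-30749282, plus strand: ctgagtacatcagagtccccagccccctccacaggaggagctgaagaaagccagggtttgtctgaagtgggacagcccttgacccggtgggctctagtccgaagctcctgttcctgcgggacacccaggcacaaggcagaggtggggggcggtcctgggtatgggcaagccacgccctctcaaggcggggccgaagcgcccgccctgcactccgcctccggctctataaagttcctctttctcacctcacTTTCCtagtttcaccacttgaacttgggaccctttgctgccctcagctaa
TGACG occurred in 4 of the 9 member windows and in 20.8% of all 32851 windows. The first base of the match stood 129 and 66 bases before the start of Fos, 60 before that of Fosb, 106 before that of Junb and 98 before that of Batf. GGAAA occurred in the windows of Jun, Batf, Batf3 and Irf4, 4 of 9 against 61.3% of all windows. Its match stood 59 bases before the start of Jun, and in Irf4 on the opposite strand at the first transcribed base. The AP-1 site TGANTCA, searched on both strands, was found in 0 of 9 member windows and in 7.81% of all windows, and GAAA followed after any 2 bases by a further GAAA, a repeat bound by IRF proteins, in 1 of 9, that of Fosl2, against 3.44% of all. TGACG directly followed by TCA was in 0 of 9 and 1.79% of all windows. The AP-1 site within 4 bases of GAAA, the arrangement of the elements shared by AP-1 and IRF proteins, was in 0 of 9 and 0.983% of all windows. TGACG overlaps the longer element that begins with it, and the search for TGACG alone was chosen after the expression values were known. These matches are descriptions of the printed letters.

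The first comparison asked how activated cells differed from native cells of the same genotype. Fos, Fosb, Jun and Junb fell and Irf4 rose, in KO and in WT cells alike, while Fosl1, Fosl2, Jund, Batf and Batf3 did not pass the test. The log2 differences of the 4 that fell lay between -4.44 and -2.10 in KO cells and between -3.96 and -2.06 in WT cells. With limma and Benjamini-Hochberg adjustment over all 19938 genes at a threshold of 0.05, 5 of 10 members passed in KO cells, where 20.1% of all genes did, and 5 of 10 in WT cells, where 20.6% did. Of all genes, 11.4% fell in KO and 10.9% in WT cells, against 4 of the 10 members in each. A rise was called for 8.72% of all genes in KO and 9.72% in WT cells, so that 1 rising member of 10 is close to the background. The median difference over the members was -0.39 in KO cells, where that of all genes was 0.022, and -0.48 in WT cells, where that of all genes was -0.021. With genes at background set to their bound, the members' medians were -0.43 in KO and -0.48 in WT cells. Without activated KO array 3 the same 5 members passed in KO cells, with fitted differences of -4.49 for Fosb and 2.32 for Irf4. Fewer cells of a type and less RNA per cell cannot be told apart in these bulk samples.

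**Figure D1:**
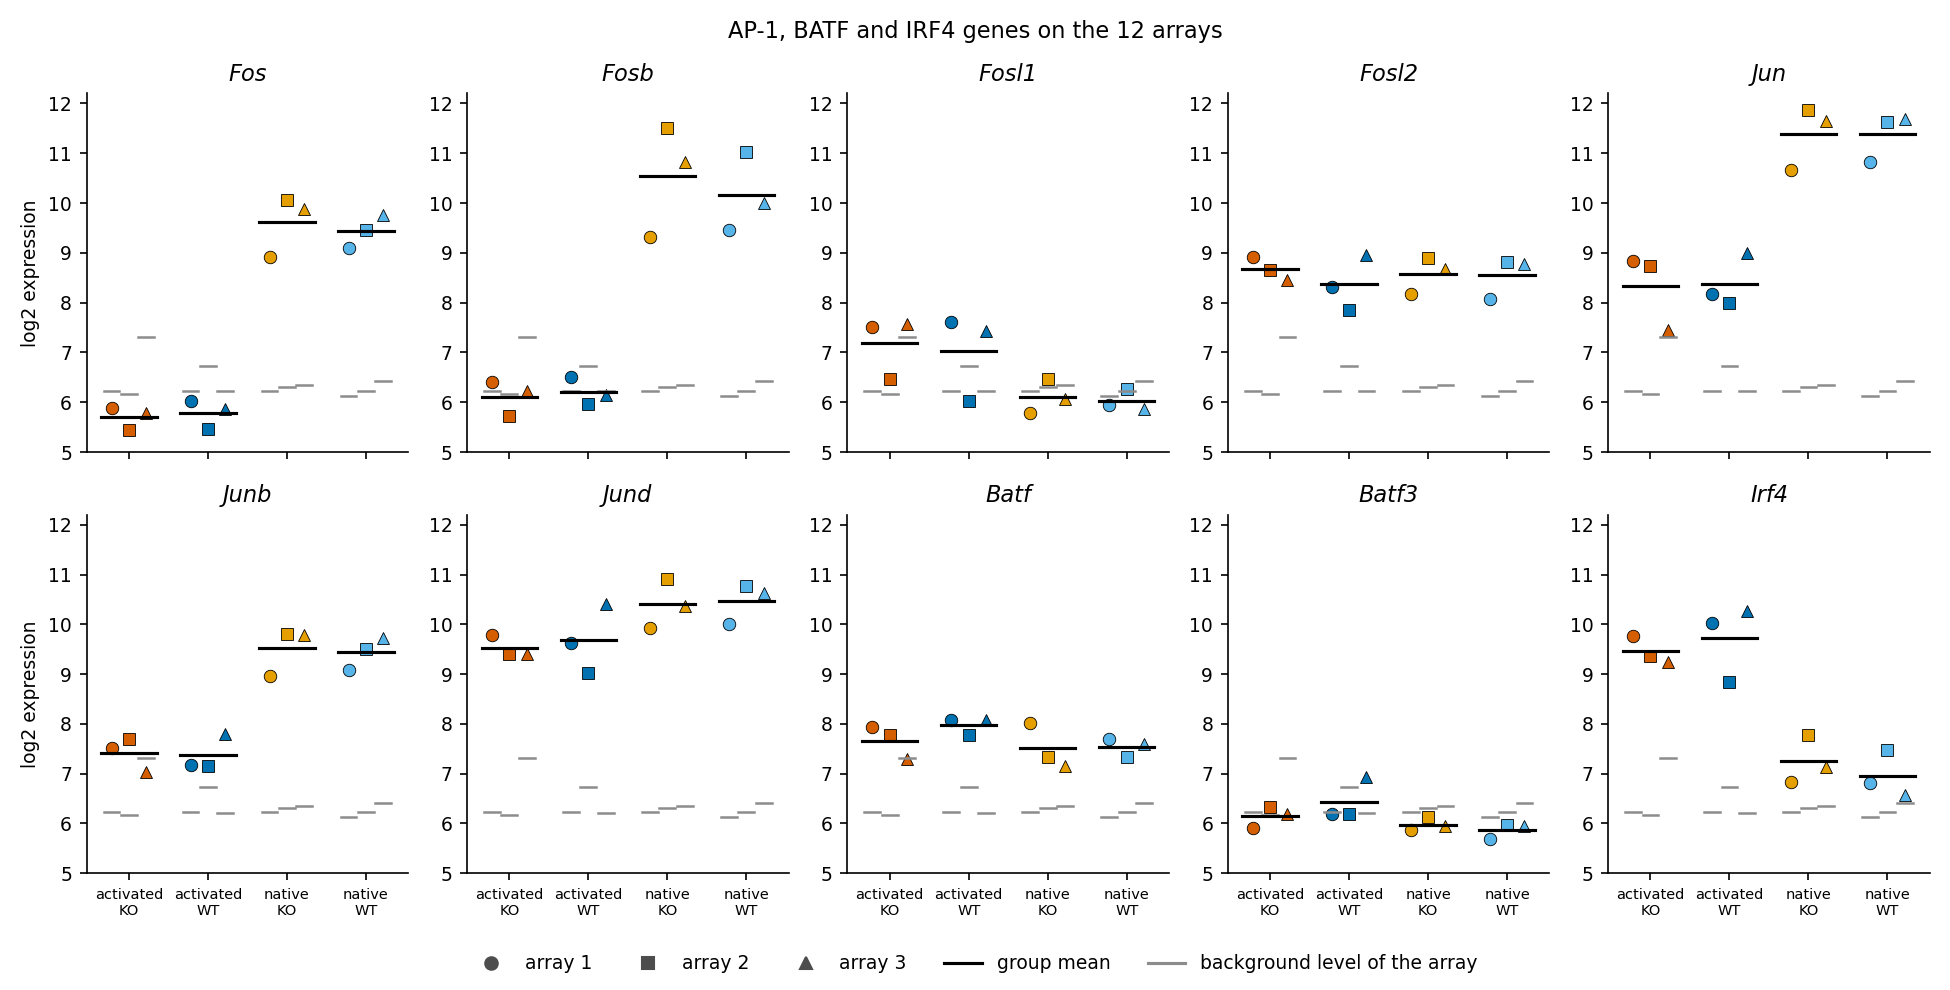
Log2 level of each of the 10 genes (y axis of each panel) on every array of the 4 groups (x axis). Symbols are arrays 1 to 3, black bars are group means and grey dashes are the background level of each array; Fos, Fosb, Jun and Junb sit lower on all 6 activated arrays than on any of the 6 native arrays, and Irf4 sits higher.

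Fos, the founding Fos protein, which cannot pair with itself and depends on a Jun partner, stood at 5.88, 5.45 and 5.78 on arrays 1 to 3 of activated KO cells, against 8.91, 10.06 and 9.88 in native KO cells. In WT cells its levels were 6.02, 5.46 and 5.87 after activation, against 9.10, 9.45 and 9.76 in the native state. All 6 activated values were at background, and all 6 native values lay well above it. The fitted difference was -3.91 ± 0.28 in KO cells (SE, n = 3 arrays per group, limma adjusted p = 2.48e-06) and -3.65 ± 0.28 in WT cells (adjusted p = 3.41e-06). Set against the background level of the activated arrays, Fos was at least 8.27-fold lower in KO and at least 8.27-fold lower in WT activated cells than in native cells of the same genotype.

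Fosb, which forms AP-1 with Jun proteins as Fos does, was measured at 6.40, 5.72 and 6.22 in activated KO cells and at 9.32, 11.51 and 10.82 in native KO cells. Activated WT cells gave 6.51, 5.96 and 6.15, and native WT cells 9.45, 11.03 and 10.01. Activated and native arrays did not overlap in either genotype, and array 1 was the lowest native array in both. The difference of -4.44 ± 0.50 in KO cells (limma adjusted p = 7.9e-05) was fitted over activated values that were mostly at background, and in WT cells it was -3.96 ± 0.50 (adjusted p = 0.000167). Because only 1 of 3 activated arrays lay above background in each genotype, part of each size comes from background readings. With every value below background raised to that level, which was tried after the data had been seen, the differences were -3.93 ± 0.45 in KO and -3.68 ± 0.45 in WT cells.

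Jun, the Jun protein with the strongest transactivation, can also form AP-1 with itself. Its levels were 8.84, 8.73 and 7.45 on activated KO arrays and 10.67, 11.88 and 11.64 on native KO arrays. On WT arrays they were 8.17, 7.99 and 8.99 in activated and 10.82, 11.63 and 11.68 in native cells. Jun thus stayed above background in activated cells, unlike Fos, and every activated array lay below every native array. The fall was 8.3-fold in KO cells (-3.05 ± 0.43, limma adjusted p = 0.000392) and 7.98-fold in WT cells (-3.00 ± 0.43, adjusted p = 0.000416). Without activated KO array 3, which gave the lowest value, the difference in KO cells was -2.61 ± 0.38 (adjusted p = 0.000489).

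Junb, a Jun protein that can oppose Jun at some promoters, fell as well. It was at 7.52, 7.71 and 7.04 in activated KO cells, against 8.97, 9.81 and 9.78 in native KO cells, and at 7.18, 7.16 and 7.79 in activated WT cells, against 9.08, 9.50 and 9.72 in native WT cells. The groups did not overlap, and only the value of activated KO array 3 lay under its own background level. The differences were -2.10 ± 0.27 in KO cells (4.29-fold, limma adjusted p = 0.000222) and -2.06 ± 0.27 in WT cells (4.17-fold, adjusted p = 0.00024). Without activated KO array 3 the difference in KO cells was -1.91 ± 0.28.

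Jund, the Jun protein that many cells carry without a stimulus, had 9.78, 9.41 and 9.41 in activated KO cells and 9.92, 10.92 and 10.36 in native KO cells. The values in WT cells were 9.62, 9.03 and 10.41 after activation and 10.001, 10.76 and 10.62 in the native state. The KO groups did not overlap, while activated WT array 3 lay among the native WT arrays. Neither difference passed the test, with -0.87 ± 0.34 in KO cells (limma adjusted p = 0.0995, 95% interval -1.61 to -0.13) and -0.78 ± 0.34 in WT cells (adjusted p = 0.141, interval -1.52 to -0.039). This call depended on a single array: without activated WT array 3 the adjusted p was 0.0491 in KO cells, at the same difference, and 0.0311 in WT cells, at -1.14. Other omissions made the difference smaller, down to -0.61 in KO and -0.45 in WT cells. Over all fits the limma adjusted p reached 0.343 in KO and 0.428 in WT cells.

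Fosl1 and Fosl2, Fos-related proteins that lack the transactivation domain of Fos, did not pass the test in either genotype. Fosl1 gave 7.51, 6.46 and 7.56 in activated KO cells, against 5.77, 6.47 and 6.06 in native KO cells, and 7.61, 6.02 and 7.43 in activated WT cells, against 5.93, 6.26 and 5.87 in native WT cells. Arrays 1 and 3 of each activated group were high, whereas array 2 of each lay within the native range. The differences of 1.08 ± 0.40 in KO (limma adjusted p = 0.0811) and 1.00 ± 0.40 in WT cells (adjusted p = 0.104) did not pass. Without activated WT array 2 the WT difference was 1.498 (adjusted p = 0.00575), and without activated KO array 2 the KO difference was 1.44 (adjusted p = 0.0205). Other omissions lowered the differences, to 0.89 in KO cells without activated KO array 3 and down to 0.71 in WT cells. Over all fits the limma adjusted p reached 0.246 in KO and 0.340 in WT cells. The value of 7.56 on activated KO array 3 lay close to that array's background level of 7.31. Fosl1 was above background on 3 of 3 activated KO and 2 of 3 activated WT arrays, and on 1 of 3 arrays of each native group.

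Fosl2 had 8.92, 8.65 and 8.45 in activated KO cells and 8.18, 8.90 and 8.67 in native KO cells. The activated WT arrays gave 8.31, 7.86 and 8.95, and the native WT arrays 8.07, 8.81 and 8.78. Activated and native values overlapped in each genotype, and the differences of 0.093 ± 0.29 in KO and -0.18 ± 0.29 in WT cells did not pass (limma adjusted p = 0.887 and 0.775). The 95% intervals, -0.54 to 0.72 in KO and -0.81 to 0.45 in WT cells, do not reach the fitted differences of Fos, Fosb, Jun and Junb.

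Irf4, the partner of BATF proteins, was the member that rose. Activated KO cells had 9.77, 9.35 and 9.25 and native KO cells 6.82, 7.79 and 7.13. Activated WT cells had 10.02, 8.85 and 10.28, against 6.81, 7.47 and 6.56 in native WT cells. No activated array overlapped a native one, and activated WT array 2 was the lowest of the 6 activated arrays. The rise was 4.64-fold in KO cells (2.21 ± 0.37, limma adjusted p = 0.00128) and 6.8-fold in WT cells (2.77 ± 0.37, adjusted p = 0.000255).

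Batf was at 7.93, 7.77 and 7.29 in activated KO cells, against 8.02, 7.34 and 7.16 in native KO cells. WT cells had 8.07, 7.77 and 8.08 after activation and 7.69, 7.33 and 7.60 in the native state. The WT groups did not overlap, although the gap between them was narrow, and the KO groups did overlap. Neither difference passed: 0.16 ± 0.22 in KO cells (limma adjusted p = 0.734, 95% interval -0.33 to 0.65) and 0.43 ± 0.22 in WT cells (adjusted p = 0.233, interval -0.060 to 0.92). The value of activated KO array 3 lay just under its own background level, and 2 of 3 activated KO arrays were above theirs. Without activated KO array 3 the KO difference was 0.35 ± 0.22 (adjusted p = 0.307).

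Batf3, which is best known from dendritic cells, had 5.91, 6.34 and 6.19 in activated KO cells and 5.86, 6.14 and 5.94 in native KO cells. It had 6.18, 6.19 and 6.93 in activated WT cells and 5.68, 5.97 and 5.94 in native WT cells. All 6 native values were at background, and 1 of 3 activated arrays lay above it in each genotype. The mean of the activated WT arrays lay 0.18 above the background level of the native WT arrays (1.13-fold). That excess rests on array 3, the only activated WT array above its own background, so it is no lower limit of a rise. In KO cells the activated mean did not exceed the background level of the native arrays. The fitted values, 0.57 ± 0.20 in WT (limma adjusted p = 0.0609) and 0.17 ± 0.20 in KO cells (adjusted p = 0.662), did not pass. The WT value passed once the replicate number was fitted as a block (limma adjusted p = 0.0348), which then made 6 members in WT cells, and in a trended robust fit (0.0487), and it was 0.37 ± 0.27 with values raised to background (adjusted p = 0.626).

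**Figure D2:**
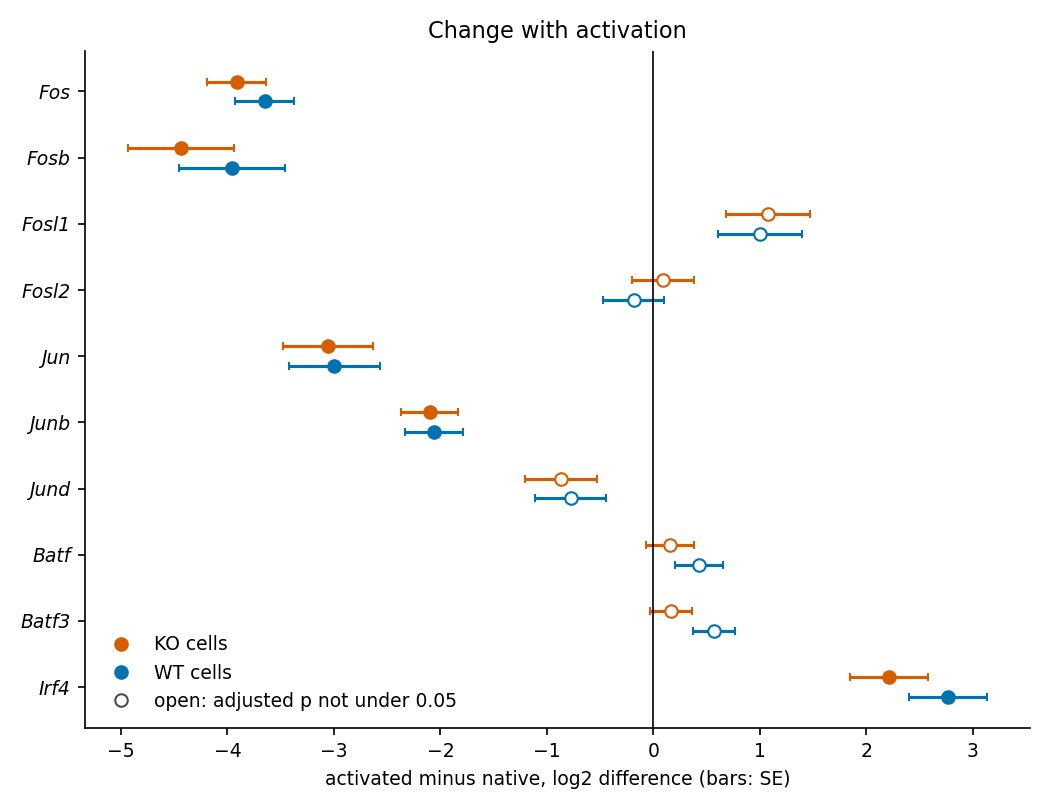
Activated minus native log2 difference (x axis) of each member in KO and in WT cells, with the standard error of the limma fit (3 arrays per group); filled points passed at an adjusted p under 0.05 and open points did not. Points for Fosb, Fos, Jun and Junb lie between -4.44 and -2.06 and those for Irf4 at 2.21 and 2.77; the other members lie between -0.87 and 1.08.

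Counted without a test, activated and native arrays did not overlap for 6 of 10 members in KO cells (Fos, Fosb, Jun, Junb, Jund and Irf4), where 30.9% of all genes did not. In WT cells 7 of 10 did not overlap (Fos, Fosb, Jun, Junb, Batf, Batf3 and Irf4), where 41% of all genes did not.

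The second comparison set KO against WT cells. In the native state 0 of 10 members passed, as did 0% of all genes, and KO and WT arrays overlapped for all 10 members, where 7.04% of all genes did not overlap. The limma adjusted p was 0.9999 for every member. Fosb had the largest difference, at 0.38 ± 0.50, followed by Irf4 at 0.30 ± 0.37 and Fos at 0.18 ± 0.28, and the other members lay between -0.061 and 0.12. The median over members was 0.083 and that over all genes -0.022. The smallest unadjusted p among the members was 0.437, whereas 131 of all genes had an unadjusted p under 0.05. The 95% intervals still allow a sizeable change, from -0.70 to 1.47 for Fosb, from -0.51 to 1.10 for Irf4 and from -0.92 to 0.95 for Jun.

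In the activated state 0 of 10 members passed either, again with 0% of all genes, and the arrays overlapped for all 10, where 1.75% of all genes did not. Batf had the largest difference, lower in KO cells by a value that did not pass (-0.31 ± 0.22), then Fosl2 at 0.30 ± 0.29, Batf3 at -0.29 ± 0.20 and Irf4 at -0.26 ± 0.37. The median over members was -0.089 and that over all genes -0.0062. For all members the adjusted p was 0.9999, the smallest unadjusted p was 0.170, and 87 of all genes had an unadjusted p under 0.05. Without activated KO array 3 the difference for Jun was 0.40, in place of -0.042, that for Junb 0.23, in place of 0.044, and that for Batf -0.12, and 0 members passed.

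Neither did the difference in response between the genotypes, tested as the interaction of genotype and state, pass for any member or for any gene (0%, with 86 genes at an unadjusted p under 0.05). Irf4 had the largest value, at -0.55 ± 0.52 with a 95% interval of -1.69 to 0.58 and a range of -0.99 to -0.27 without single arrays, and Fosb had -0.48 ± 0.70 with an interval of -2.02 to 1.06. For Jun and Junb the values were -0.058 ± 0.60 and -0.042 ± 0.38. The rises of Irf4 in KO and in WT cells thus differed by about the standard error of that difference.

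**Figure D3:**
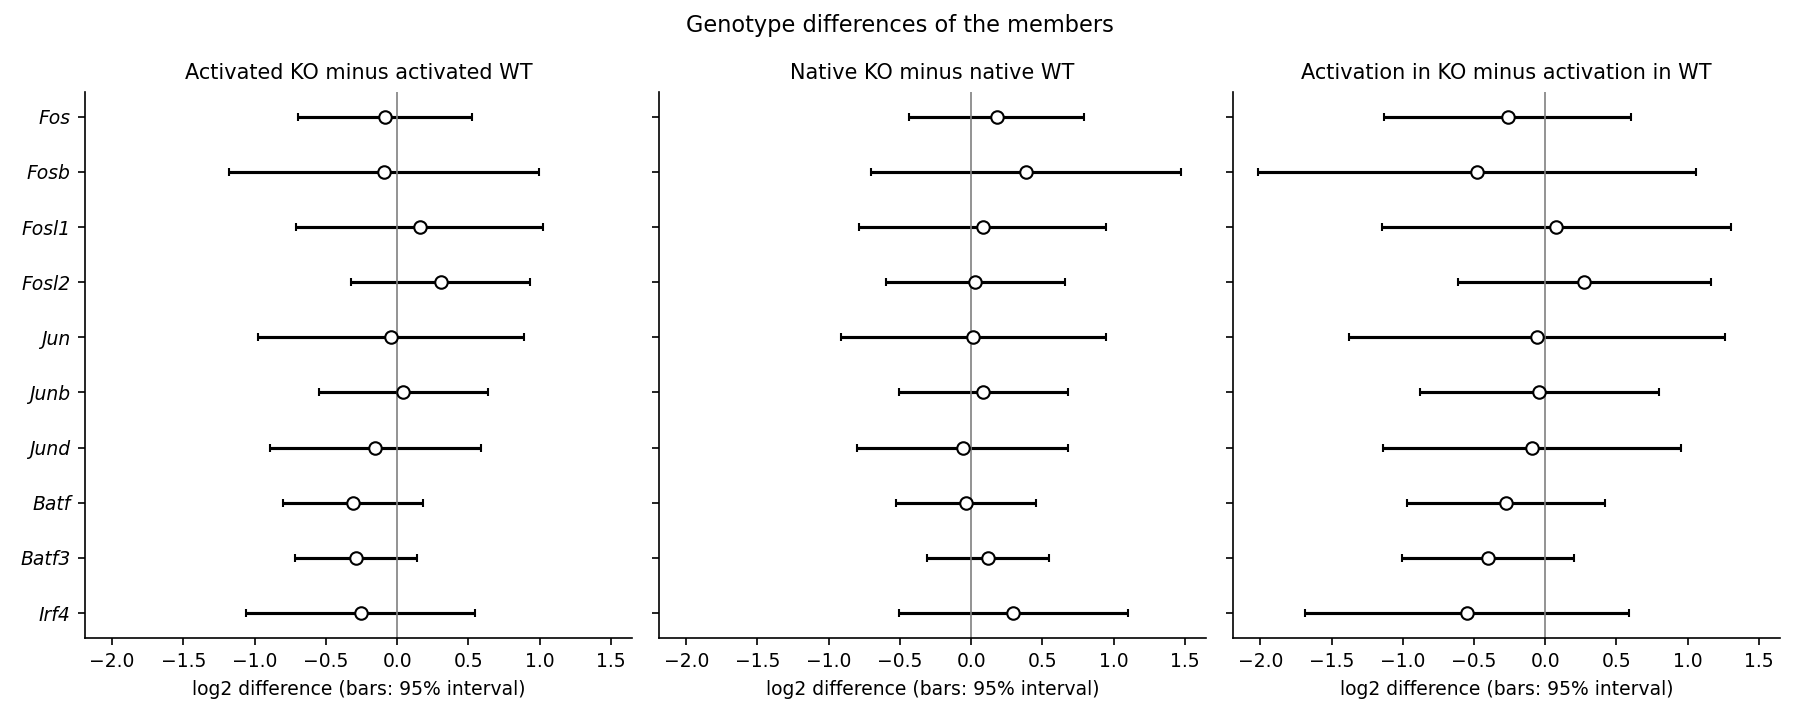
KO minus WT log2 difference (x axis) of each member in activated and in native cells, and the difference between the activation responses of KO and WT cells, each with its 95% interval from the limma fit. Every interval includes 0; the KO minus WT estimates lie between -0.31 and 0.38, and the differences in response between -0.55 and 0.28.

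Arrays of a group varied together over the members. In native KO cells array 1 was the lowest of the 3 for 9 of 10 members, all except Batf, although it was the lowest for 42.4% of all genes. Array 2 was the highest for the same 9 members. Native WT array 1 was the lowest for 7 members (28.6% of all genes). Among activated arrays, WT array 2 was the lowest for 9 members (38.9% of all genes) and KO array 3 for 6 (42.3%).

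Taken by replicate number, native KO array 2 lay above native WT array 2 for all 10 members, by 0.012 to 0.61, with Fos at 0.61 and Fosb at 0.47. With number 1 it was 4 members and with number 3 it was 5. Over all genes, deviations of native KO and WT arrays of the same number correlated at 0.58, 0.40 and 0.157. Arrays of unequal number gave -0.50 to 0.13, so the value for number 3 lay little above that range. In the activated state KO lay above WT for 4 members with number 1, for 8 with number 2 and for 2 with number 3. The differences with number 3 reached -1.53 for Jun, -1.03 for Irf4 and -0.99 for Jund, and that pair holds the KO array that stood apart. Activated arrays of the same number did not all deviate together, with correlations of 0.69, -0.017 and -0.013. By the sample descriptions, KO and WT arrays of the same state and replicate number also share an experiment number. Whether this stands for shared mice or days is not stated. Native and activated arrays share no experiment number, so state and experiment cannot be told apart.

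**Figure D4:**
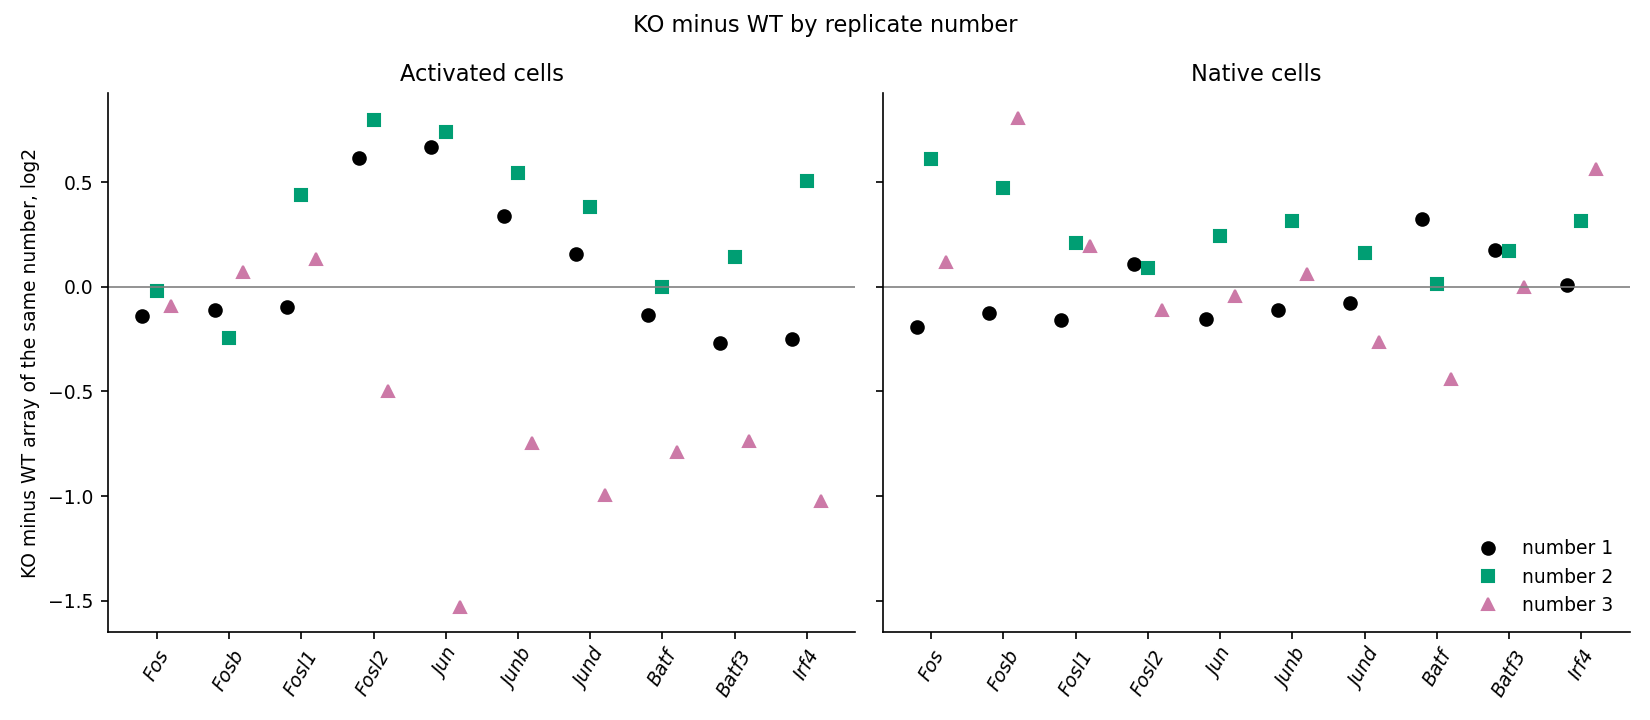
KO minus WT log2 difference (y axis) of each member (x axis) between arrays that carry the same replicate number, shown by symbol, in activated and in native cells. The sign changes with the number for most members; native number 2 lies above 0 for all 10 genes and activated number 3 below 0 for 8.

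Genes around AP-1 were followed in lists, each read against the same background of all genes called. Among the other leucine zipper factors, 30 of 32 were measured. In KO cells 7 rose and 7 fell after activation, where 8.72% and 11.4% of all genes did. In WT cells 6 rose and 4 fell, where 9.72% and 10.9% of all genes did. Mafk, a small Maf protein, fell, with 7.65, 6.97 and 6.64 in activated KO cells against 9.05, 9.50 and 9.17 in native KO cells (-2.15 ± 0.25, limma adjusted p = 9.63e-05) and with a difference of -2.04 ± 0.25 in WT cells. Atf6, a sensor of stress in the endoplasmic reticulum, rose by 1.59 ± 0.25 in KO and by 1.83 ± 0.25 in WT cells, and Nfil3, a factor of NK cell development, by 1.35 ± 0.37 and 1.63 ± 0.37. The list medians were -0.20 in KO and -0.12 in WT cells, or -0.062 and -0.085 with genes at background set to their bound.

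Of the MAP kinases and the kinases and Ets factors around them, 23 of 28 were measured, and 4 rose and 2 fell in KO cells, while 5 rose and 1 fell in WT cells, shares near the 20.1% and 20.6% of all genes called. Mapk8, the kinase JNK1 that phosphorylates Jun, fell: 7.96, 7.96 and 7.16 in activated KO cells against 9.09, 9.10 and 9.25 in native KO cells (-1.45 ± 0.19, limma adjusted p = 0.000253), and -1.23 ± 0.19 in WT cells. Mapk11, a p38 kinase, rose by 1.28 ± 0.22 in KO and 1.76 ± 0.22 in WT cells. Among 10 MAP kinase phosphatases 3 fell in each genotype, where 11.4% of all genes fell in KO and 10.9% in WT cells. In WT cells 1 phosphatase, Dusp7, rose, where 9.72% of all genes did. The phosphatases that fell were Dusp1, Dusp2 and Dusp10, which dephosphorylate MAP kinases in the nucleus or, for Dusp10, p38 and JNK. Dusp1 had 9.44, 8.78 and 8.93 in activated KO cells against 11.87, 12.79 and 12.38 in native KO cells, a difference of -3.30 ± 0.33, and in WT cells the difference was -3.46 ± 0.33. Of 10 genes of NFAT and calcineurin, 2 fell in KO cells, and 2 fell and 1 rose in WT cells, shares near the 20.1% and 20.6% of all genes called. Those that fell included Cabin1, an inhibitor of calcineurin, at -0.65 ± 0.15 in KO and -0.62 ± 0.15 in WT cells. The Nfat genes themselves did not pass in either genotype.

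Of the other IRF factors and their Ets partners 11 of 12 were measured, with 2 higher and 4 lower in each genotype. Of all genes, 8.72% rose and 11.4% fell in KO cells, and 9.72% rose and 10.9% fell in WT cells. Irf8, the closest relative of Irf4 in sequence, rose by 2.92 ± 0.45 in KO cells (10.43, 9.40 and 10.80 activated against 7.47, 6.89 and 7.50 native, limma adjusted p = 0.000817) and by 3.15 ± 0.45 in WT cells. Irf1, an interferon-induced factor, fell by 1.88 ± 0.38 in KO and by 1.43 ± 0.38 in WT cells. Irf8 is also known from myeloid cells: of 12 macrophage and dendritic cell markers, 10 were at background in activated KO and 11 in activated WT cells, and their mean lay between 5.82 and 5.95 on activated KO arrays and between 5.80 and 5.89 on activated WT arrays. Cd68 was above background, at 9.82, 8.60 and 9.66 in activated WT cells and 8.11, 9.003 and 8.20 in native WT cells (0.92 ± 0.50, adjusted p = 0.256). H2-Ab1, of MHC class II, rose in WT cells, with 8.92, 9.08 and 9.60 in activated and 5.71, 6.42 and 5.46 in native cells (3.33 ± 0.85, adjusted p = 0.015). Of 5 MHC class II genes it was the only 1 with a difference above 0 in WT cells, and their median was -0.13. Activated KO cells had 8.41, 9.95 and 5.64 for H2-Ab1. In KO cells, where 11.4% of all genes fell, 0 of the 5 genes rose and 3 fell, among them Cd74 (-1.92 ± 0.45, with a bound of -1.31). The part of antigen-presenting cells in the level of Irf8 was not tested.

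All 30 textbook target genes of AP-1, NFAT or BATF with IRF4 were on the array. In KO cells 10 rose and 3 fell, and in WT cells 12 rose and 2 fell, so that 17 and 16 did not pass. Rises were called for 8.72% of all genes in KO and 9.72% in WT cells, and falls for 11.4% and 10.9%. Il2ra, the high-affinity interleukin-2 receptor chain, was at 12.85, 12.50 and 12.85 in activated KO cells against 7.15, 6.99 and 7.39 in native KO cells, a rise of 5.55 ± 0.20 (47-fold, limma adjusted p = 4.47e-08), and rose by 6.01 ± 0.20 in WT cells. Gzmb, a protease of cytotoxic granules, rose by 4.82 ± 0.25 in KO and 5.15 ± 0.25 in WT cells, and Tnfrsf9, the costimulatory receptor 4-1BB, by 3.99 ± 0.29 and 4.02 ± 0.29. Cd69, an early activation antigen, was among those that fell, with differences of -1.97 in KO and -2.22 in WT cells. The median of the list was 0.047 in KO and 0.21 in WT cells, or 0 and 0.097 with bounds, and 8 members in KO and 7 in WT cells were at background in the native and the activated state.

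The next list held immediate early genes and dissociation genes, which are known to be induced while cells are taken out of a tissue. It mostly moved the same way as Fos, Fosb, Jun and Junb. Of 19 measured, 15 fell and 1 rose in KO cells, where 11.4% and 8.72% of all genes did. In WT cells 12 fell and 1 rose, where 10.9% and 9.72% of all genes did. The median difference was -1.94 in KO and -1.87 in WT cells, or -1.88 and -1.68 with bounds. Klf2, a factor of T cell quiescence and trafficking, was at 7.75, 7.36 and 6.51 in activated KO cells and at 10.84, 11.67 and 11.34 in native KO cells, a difference of -4.07 ± 0.36 (limma adjusted p = 1.26e-05). Nfkbia, the inhibitor of NF-kappaB, had differences of -3.46 ± 0.21 in KO and -3.12 ± 0.21 in WT cells. For Nr4a1, a nuclear receptor induced by the antigen receptor, they were -3.06 in KO and -2.87 in WT cells, and all 4 passed. Ier3 was the 1 that rose, by 1.60 in KO and 1.89 in WT cells. Egr1 and Egr2, which are induced by antigen receptor signals, did not pass, at -1.15 and -0.43 in KO and -1.17 and -0.54 in WT cells. Egr3, of the same family, fell in KO cells (-0.83, limma adjusted p = 0.0199) and did not pass in WT cells (-0.67, adjusted p = 0.0504). The part of cell handling in the native levels of Fos, Fosb, Jun and Junb was not tested. Between KO and WT cells, 0 members of any of these lists passed in either state.

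**Figure D5:**
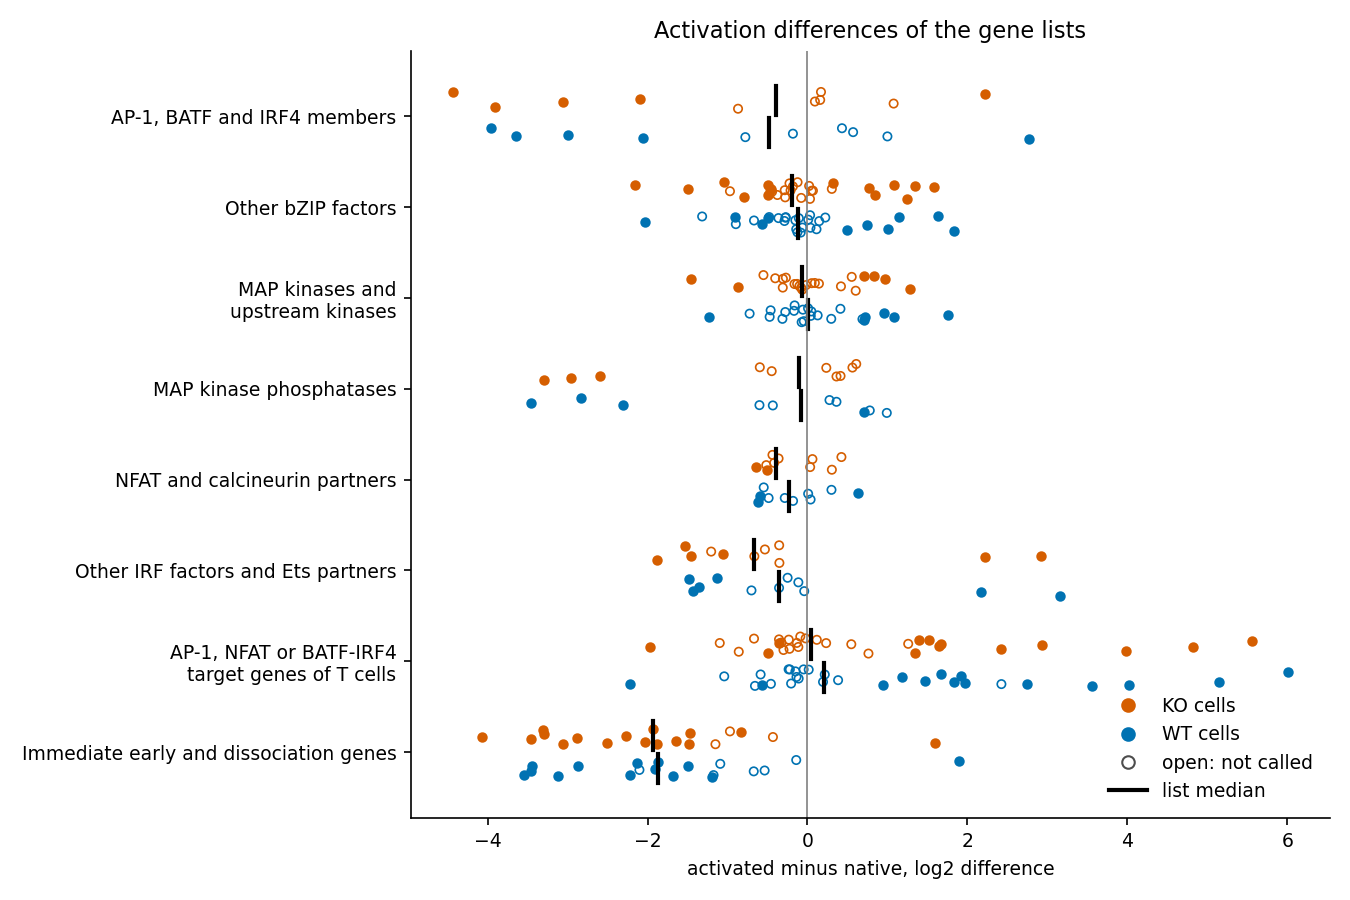
Activated minus native log2 difference (x axis) of every measured gene in 8 lists (rows), in KO and in WT cells; filled points passed the limma test at an adjusted p under 0.05, open points did not, and black bars are list medians. Points are spread vertically only for legibility. The medians of the immediate early and dissociation genes lie at -1.94 in KO and -1.87 in WT cells, and Il2ra lies farthest right, at 5.55 and 6.01.

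Markers of other cells did not pass the test between native KO and native WT cells, with 0 of 12 for neutrophils and 0 of 6 for NK cells. Their direction was uniform, however. All 12 neutrophil markers were higher in native KO cells (median difference 1.21), as were all 6 NK cell markers (median 0.59), where 7999 of 19938 genes were. Retnlg had a difference of 2.10 ± 0.26 (limma adjusted p = 0.102). The mean of 12 neutrophil markers was between 6.01 and 8.31 on native KO arrays and between 5.42 and 6.75 on native WT arrays, and 11 of the 12 were at background in each activated group. The other one, Mmp9, a matrix protease, rose after activation, by 2.31 ± 0.72 in KO (limma adjusted p = 0.042) and at least 2.97 in WT cells (adjusted p = 0.00217). On activated KO array 3 Mmp9 was at 6.34, under that array's background level. It was the exception in KO cells, where 6 of the 12 neutrophil markers fell and 1 rose, while 11.4% of all genes fell. Fitted differences there were -4.19 ± 0.90 for Ngp and -2.69 ± 0.26 for Retnlg, with bounds of -3.00 and -1.58. In WT cells 0 of the 12 fell and 1 rose. Native KO array 2, on which 9 members were highest, had the lowest neutrophil mean of its group, at 6.01. The mean of 6 NK cell markers was between 7.91 and 8.71 on native KO and between 7.49 and 8.03 on native WT arrays. The part of these cells in the members' levels was not tested.

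For each member that was above background on at least 3 arrays, the 3 genes with the most similar profile were taken by Pearson's r over the 12 arrays, among 9480 genes above background on average. The 12 points fall into native and activated groups and share arrays, and no test is attached. Fos was most like Slc25a2 (r = 0.994), Dusp1 (0.987) and Kbtbd7 (0.987), and Fosb was most like Klf4 (0.993), Zbtb10 (0.992) and Nfkbid (0.990). Jun and Junb were each other's closest gene (r = 0.994), with Dusp2 next for Jun (0.993) and Rpl23 for Junb (0.992). Jund was followed by Maff (0.944), Plk3 (0.934) and Exoc5 (0.931). Irf4 varied with Blm (0.989), Topbp1 (0.984) and Tmem163 (0.984), Batf with Ppp1r11 (0.962), Kcmf1 (0.941) and Rsl1 (0.921), and Fosl1 with Slc39a4 (0.959), Eps8 (0.957) and Hbegf (0.957). Fosl2, which differed little between the states, had the loosest matches, with Pltp (0.813), Bag3 (0.805) and Pim1 (0.799). Batf3 was above background on too few arrays for such a search.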

How the data were processed

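Gene expression was measured on 12 Affymetrix whole-transcript arrays. Per the labels' protocols, RNA was extracted with Trizol and RNeasy columns and labelled with biotin as sense DNA. The deposited values are log2 expression, 1 per transcript cluster, and per the submitters' processing notes the authors used RMA in Partek. Neither program's version was given in the sources used here. RMA compresses differences near background. All columns of the table were used.

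Gene symbols came from the platform annotation and were updated by Entrez identifier. It gave 1 symbol to 21789 rows, several to 1621 and none to 12146. Of the rows with 1 symbol, 21698 matched the gene table, and the brightest row per gene left 19938 genes. A gene counts as at background in a group if none of its 3 arrays exceeds the 95th percentile of 1015 olfactory receptor genes on that array. Against such a group a bound is given beside the fitted difference.

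Means of the 4 groups were fitted over all 12 arrays with limma 3.58.1 in R 4.3.3 (lmFit, eBayes), with Benjamini-Hochberg adjustment over all genes and a threshold of 0.05. The groups share 1 estimate of the spread, and errors are standard errors of this fit. The script was tested on simulated data. The p-values measure the spread between arrays that the titles call biological replicates; whether these came from separate mice is not stated. The number of arrays limits the precision.

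Members and lists were chosen with earlier results of these data known. All 10 members are described. From each list up to 4 called genes of largest difference per comparison could be named, and for a member above background on at least 3 arrays the 3 genes of highest Pearson's r. Cd69, Nr4a1, Ier3, Egr1, Egr2 and Egr3 were named outside this rule, after their values were seen. Titles give the same replicate numbers to all groups. Over all genes, deviations of KO and WT arrays of the same number correlated at 0.58, 0.40 and 0.157 in the native state. The highest native value for unequal numbers was 0.13. In the activated state the same numbers gave 0.69, -0.017 and -0.013. The fit with the number as a block was an alternative. Others were each array left out, all rows, the mean of a gene's rows, a filter on dim genes, median centring, quantile normalization, array weights, a trended robust fit, the 2 groups compared alone, blocks by experiment number and, added after seeing the data, values raised to background.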

Additional observations from a re-analysis of the deposited data

How the results depend on the processing

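The 5 calls among members in each activation comparison were all kept in every other fit and without any single array. Leaving out each array in turn, members called numbered 5 to 6 in KO and 5 to 7 in WT cells, and 0 in each genotype comparison and in the interaction. Array weights gave 8 in KO and 8 in WT cells, adding Fosl1 and Batf in both, Jund in KO and Batf3 in WT cells, with a weight of 0.0959 for activated KO array 3. The weights were estimated gene by gene. Fosl1 also passed in KO cells with dim genes filtered (adjusted p = 0.0419) and in WT cells with values raised to background (0.0237). Genes called among all genes, 4002 in KO and 4107 in WT cells, numbered 2823 to 4891 and 2805 to 5875 without single arrays, 6932 and 6930 with array weights, 2579 and 2613 with values raised to background, and 7526 and 7687 when all rows were tested. Between native KO and WT cells 0 to 10 genes passed without single arrays, 2 with all rows, 2 with array weights and 1 with a trended, robust fit. With the replicate number as a block, Batf3 passed in WT cells (difference 0.57), as it did in the trended robust fit, and no other call on a member changed with the block. Native and activated arrays of the same number correlated at 0.234, 0.0086 and -0.10 in WT and at 0.335, -0.139 and 0.264 in KO cells. Native and activated arrays of unequal number were not compared, so these values do not settle whether the number pairs them. With the block 4414 genes passed in KO and 4498 in WT cells. With the experiment number as a block, 0 members passed in either genotype comparison or in the interaction. Standard errors of some members were smaller in that fit, as for the Fosb interaction, with 0.25 in place of 0.70. Small differences changed sign. With array weights this gave -0.0024 for Batf3 (activated minus native KO), 0.096 for Jund (native KO minus WT), -0.085 for Fosl1 and 0.25 for Jun (activated KO minus WT), and -0.26 for Fosl1 and 0.048 for Jun (interaction). Quantile normalization gave 0.052 for Jun (activated KO minus WT) and 0.044 (interaction). Values raised to background gave 0.18 for Fos, 0.14 for Fosb, -0.076 for Fosl1 and 1.3e-05 for Batf3 (activated KO minus WT), and -0.15 for Fosl1 and 0.049 for Junb (interaction). Without single arrays, these ranges crossed 0. For activated minus native KO the differences that changed sign ranged from -0.11 to 0.25 for Fosl2 and -0.013 to 0.41 for Batf. For activated minus native WT the differences that changed sign ranged from -0.47 to 0.074 for Fosl2. For native KO minus WT the differences that changed sign ranged from -0.044 to 0.53 for Fos, -0.095 to 1.00 for Fosb, -0.10 to 0.24 for Fosl1, -0.21 to 0.23 for Fosl2, -0.26 to 0.38 for Jun, -0.091 to 0.36 for Junb, -0.32 to 0.18 for Jund and -0.29 to 0.14 for Batf. For activated KO minus WT the differences that changed sign ranged from -0.24 to 0.044 for Fos, -0.24 to 0.10 for Fosb, -0.34 to 0.52 for Fosl1, -0.29 to 0.40 for Jun, -0.098 to 0.25 for Junb, -0.48 to 0.21 for Jund and -0.69 to 0.025 for Irf4. For the interaction the differences that changed sign ranged from -1.09 to 0.00089 for Fosb, -0.42 to 0.44 for Fosl1, -0.42 to 0.38 for Jun, -0.32 to 0.16 for Junb and -0.42 to 0.27 for Jund. The cause of these changes was not tested. None of the differences that changed sign passed the test in the fit of all 12 arrays. Signal near background limits Fos, Fosb, Fosl1 and Batf3 in activated or native cells, and Junb and Batf on activated KO array 3. The number of arrays limits the rest.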
